A study of Mus musculus with 16 samples.

Results

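Potassium channel subunit genes were described here across sorted cells of the mouse olfactory mucosa. The members were all genes whose symbol begins with Kcn followed by letters and a number, with 1 matching antisense gene (Kcnq1ot1) left out, and a gene with several probe sets would have been read from the one brightest on average over the 16 arrays. This gave 88 of the 19505 genes measured, in 19 subfamilies, and no member had more than 1 probe set.

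The arrays (Clariom S, an Affymetrix expression array) were hybridised with RNA from S100a5-tauGFP mice, which carry a green fluorescent protein (GFP) reporter named for the S100a5 gene. S100a5 is expressed in olfactory sensory neurons and its level depends on their activity, so the GFP gate takes neurons by a gene that activity moves. The 24 mice were of both sexes and aged 7 to 12 weeks, stayed in clean-air chambers for 40 h at 3.1 L/min, and from 26 h on received pulses of 10 s every 20 min. The 4 groups were GFP+ cells of mice given cigarette smoke, GFP- cells of the same smoke mice, GFP+ cells of mice given filtered air (vehicle) and GFP- cells of the same vehicle mice. Each group held 4 samples, each from a pool of 3 mice, and both fractions of a pool came from the same animals. The odour is called cigarette smoke after the title and every sample label; the series' design text names bourgeonal instead, and the files do not settle which was given. All groups carried the reporter; the labels state neither strain nor zygosity. S100a5 itself averaged 17.02 in smoke GFP+ and 15.87 in smoke GFP- cells, and 16.46 in vehicle GFP+ and 15.25 in vehicle GFP- cells (log2 array values), and the GFP+ and GFP- ranges did not overlap within either exposure. Values above 16, which smoke GFP- cells also reached (highest 16.08), exceed what a 16-bit scanner can record in log2. The deposited scale may therefore differ from the raw one, and the size of its differences is uncertain.

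Potassium channels set the resting potential of a cell and bring it back after depolarisation. Voltage-gated (Kv) channels are built of 4 pore subunits, some of which are silent alone and work only together with others; calcium- and sodium-activated channels open on ion entry, inward rectifiers (Kir) and two-pore-domain (K2P) channels hold the resting potential, and auxiliary subunits change gating and trafficking. In olfactory sensory neurons odours depolarise the cilia by cyclic-nucleotide-gated and calcium-activated chloride channels, and potassium channels of the cell body shape the spikes that follow. The same gene family also serves non-neuronal cells of the mucosa, where inward rectifiers, K2P channels and the intermediate-conductance calcium-activated channel are known from epithelial and immune cells.

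The promoters of 4 genes on which the sort results below turn are shown so that their sequence can be read beside the values. Each is the 250 bases before a gene's start as listed in RefSeq (GRCm38.p6), 5′ to 3′ on the gene's strand. Kcnmb3 (chr3:32491970-32492219, minus strand) was the member with the largest positive sort difference in both exposures, and Kcnn4 (chr7:24370013-24370262, plus strand), Kcnk5 (chr14:20181783-20182032, minus strand) and Kcnk1 (chr8:125994852-125995101, plus strand) were lower in both exposures under every alternative run, Kcnn4 and Kcnk5 from GFP+ levels that are not clearly above the array's floor.
Kcnmb3: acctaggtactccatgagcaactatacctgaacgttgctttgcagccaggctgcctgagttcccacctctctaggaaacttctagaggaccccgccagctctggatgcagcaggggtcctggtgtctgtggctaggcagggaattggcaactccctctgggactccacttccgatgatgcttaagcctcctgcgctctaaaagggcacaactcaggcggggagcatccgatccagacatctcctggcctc
Kcnn4: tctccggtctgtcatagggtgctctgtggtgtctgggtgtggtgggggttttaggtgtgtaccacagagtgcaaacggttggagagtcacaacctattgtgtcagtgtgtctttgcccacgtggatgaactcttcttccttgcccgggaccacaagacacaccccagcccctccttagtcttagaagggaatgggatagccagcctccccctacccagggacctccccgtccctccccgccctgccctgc
Kcnk5: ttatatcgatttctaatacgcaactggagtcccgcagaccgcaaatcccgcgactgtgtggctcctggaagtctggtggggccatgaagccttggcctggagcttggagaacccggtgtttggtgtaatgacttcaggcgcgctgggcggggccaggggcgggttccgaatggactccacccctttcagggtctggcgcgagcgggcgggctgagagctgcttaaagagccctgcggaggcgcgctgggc
Kcnk1: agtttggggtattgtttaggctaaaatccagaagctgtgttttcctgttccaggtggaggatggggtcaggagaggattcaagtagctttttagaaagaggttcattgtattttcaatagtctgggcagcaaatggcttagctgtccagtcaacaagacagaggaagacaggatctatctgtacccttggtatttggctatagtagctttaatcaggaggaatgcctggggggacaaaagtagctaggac
These windows are in lower case throughout, because none of the 4 motifs searched for on both strands was in them. These were TAATTA, the core that homeodomain proteins bind, and TGACGTCA, the cAMP response element. The others were TCCCNNGGG, a core of the site of the Olf-1/EBF factors of olfactory neurons, and the core promoter element TATAAA. RefSeq windows were found for 67 of the 88 members, 92 windows in all. TCCCNNGGG stood in 4.35% of the 92 member windows (Kcnd2, Kcnh1, Kcnh6 and Kcnk4) and in 5.6% of all 32851 windows of the same length, and TATAAA in 3.26% (Kcnj13, Kcnj16 and Kcnj9) against 12.4%. TAATTA and TGACGTCA stood in 0 member windows, against 4.84% and 1.55% of all windows. The median GC content was 58.6% in member windows and 52.4% in all windows. A match is a description of the letters and not a bound site.

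Array values are given as deposited, on a log2 scale. As a level for genes that are not clearly above the array's floor, the 95th percentile of 319 vomeronasal receptors was taken in each group (6.57 in smoke GFP+, 6.26 in smoke GFP-, 6.46 in vehicle GFP+ and 6.19 in vehicle GFP- cells). This level was set with the data known; the receptors belong to another organ and serve here as a floor. Of the 88 members, 34 averaged above it in smoke GFP+, 40 in smoke GFP-, 36 in vehicle GFP+ and 41 in vehicle GFP- cells; 32 did so in all 4 groups, 45 in none and 11 in some. All Kcnmb, Kcnu and Kcnb members measured were above it in every group, and no Kcnd, Kcne, Kcnf or Kcnv member was above it in any. No member value reached 16. Replicates of a group correlated over all genes with r of 0.988 to 0.9945, and the array medians lay between 7.87 and 7.96 in GFP+ and between 8.19 and 8.29 in GFP- cells.

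**Figure D1:**
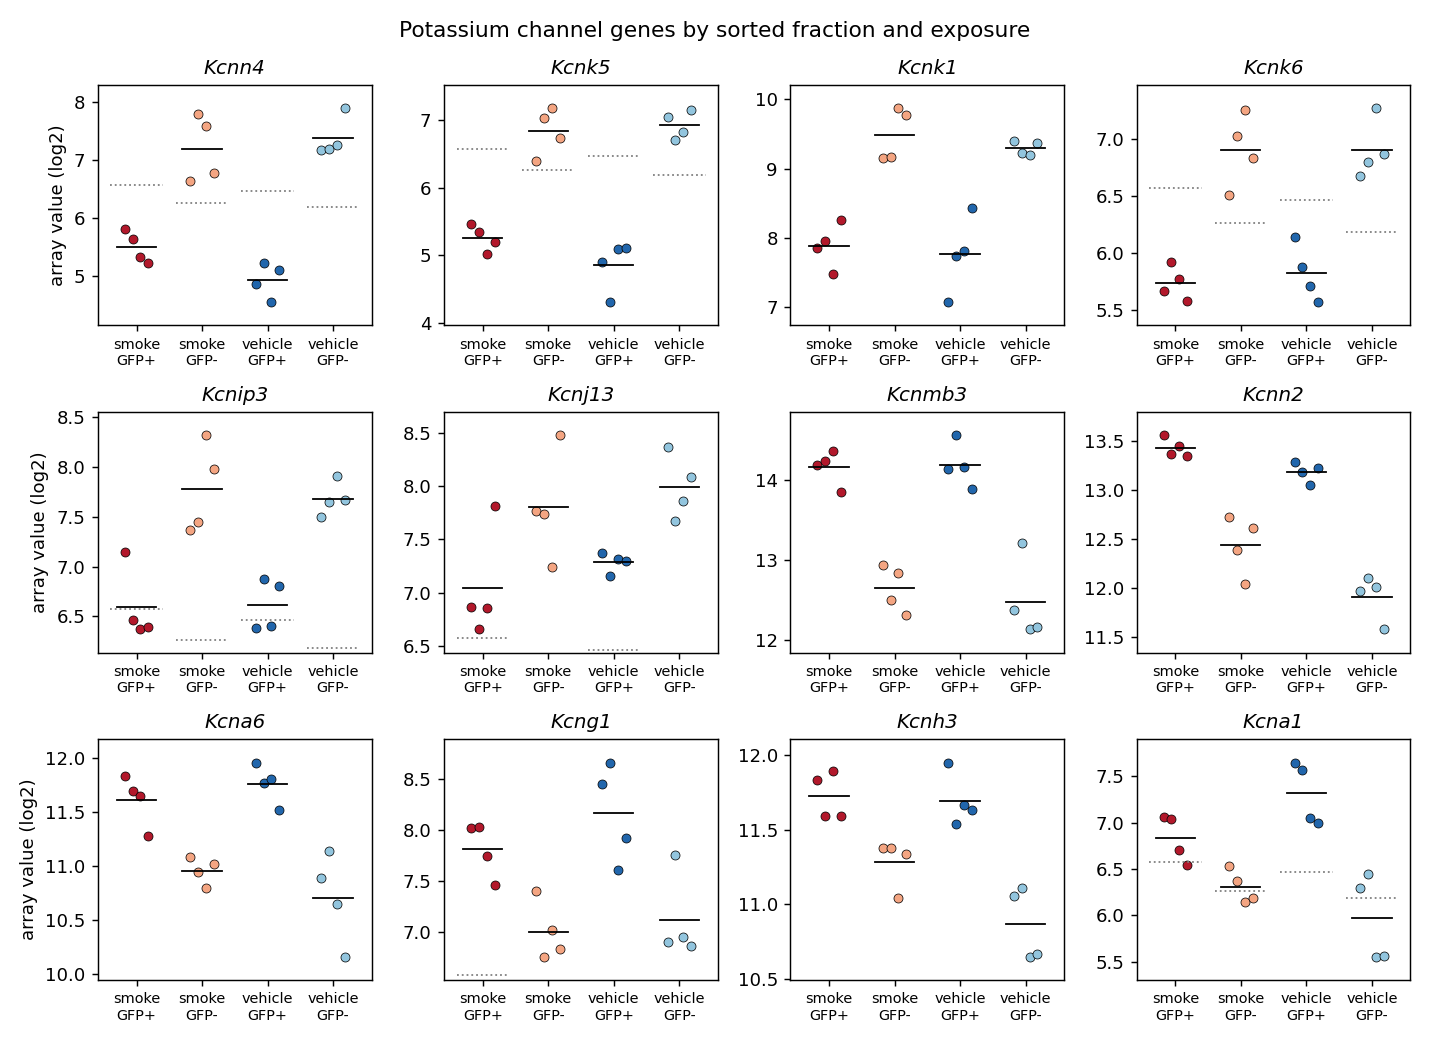
Array values (log2, vertical axis, with its own range in each panel) of 12 members in smoke GFP+, smoke GFP-, vehicle GFP+ and vehicle GFP- cells. Points are the 4 replicates of a group, black lines their means and dotted lines the 95th percentile of vomeronasal receptors in that group, where it falls in the panel. Kcnn4, Kcnk5 and Kcnk6 lie below the dotted line in GFP+ cells and above it in GFP- cells, and all GFP+ values of Kcnmb3 and Kcnn2 lie above all GFP- values.

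The first comparison asks how GFP+ cells differ from the GFP- cells of the same mice. On the deposited scale more members were higher than lower in GFP+ cells in both exposures, an order that turned round when vomeronasal receptor medians were made equal. In smoke mice 20 members were higher in GFP+ than in GFP- cells and 9 were lower, in vehicle mice 25 were higher and 8 lower (limma on all genes, two-sided, adjusted p at most 0.05 by Benjamini-Hochberg). Among all genes tested, 18.3% were called higher and 14.4% lower in smoke mice, and the members' shares were 22.7% and 10.2%. In vehicle mice 24.2% of all genes were called higher and 15.4% lower, and 28.4% and 9.09% of the members. The members' shares were thus near the background, so no enrichment of the family is read from them. The median difference of the members was 0.23 in smoke and 0.19 in vehicle mice, and that of all genes 0.15 and 0.17. The vomeronasal receptors shifted in the same direction, by a median of 0.23 and 0.26, and with every array set to the same vomeronasal median the members' median turned to -0.06 and -0.11 and that of all genes to -0.14 in both. Under that scaling 769 of all genes were higher and 4379 lower in smoke mice, and 1152 higher and 4682 lower in vehicle mice. Of the members 2 were higher and 9 lower in smoke mice, and 7 higher and 13 lower in vehicle mice. The higher calls that outlasted it were Kcnmb3 and Kcnn2 in smoke mice, and these with Kcna1, Kcna2, Kcna6, Kcng1 and Kcnh3 in vehicle mice; every other positive call below ended under it, and no negative one did. Among calls lost in other settings, omission of smoke pools 2 and 4 ended the smoke calls of Kcna4, Kcna5, Kcna6, Kcnab2, Kcne2, Kcng1, Kcnh7, Kcnj2, Kcnj13, Kcnk4 and Kcnk7 and the vehicle calls of Kcnd1 and Kcnn3. A fit on the compared groups alone ended the smoke calls of Kcna3, Kcna4, Kcna5, Kcne2, Kcnh2, Kcnj8, Kcnj13, Kcnk4, Kcnk7 and Kcnn1 and the vehicle calls of Kcnd1 and Kcnn3. Quantile normalization ended the smoke calls of Kcna3, Kcna4, Kcna5 and Kcnj13 and the vehicle calls of Kcnd1, Kcnj6 and Kcnj13, and a mean-dependent prior the smoke calls of Kcnk4 and Kcnk7. Quantile normalization gave 27 members higher and 7 lower in smoke mice, and 33 higher and 7 lower in vehicle mice. Among all genes it gave 4837 higher and 2637 lower in smoke mice, and 5542 and 2855 in vehicle mice. The count of 20 members higher in smoke mice depended on single arrays. It was 9 without smoke GFP- replicate 3, 11 without smoke GFP+ replicate 1 and 13 without smoke GFP+ replicate 3. The share of all genes called higher fell as well, from 18.3% to 12.4%, 16.1% and 14.9% in the same order.

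Smoke and vehicle pools share no array, although 1 spread per gene was estimated over all 16 in the fit. Of the members higher in GFP+ cells, 13 were called in both exposures, 65.0% of the smoke calls and 52.0% of the vehicle calls, near the 70.1% and 53% among the higher calls of all genes. They were Kcna5, Kcna6, Kcnab2, Kcnab3, Kcng1, Kcnh2, Kcnh3, Kcnh7, Kcnj2, Kcnmb3, Kcnn1, Kcnn2 and Kcns3. The 8 called lower in both, 88.9% of the smoke and all of the vehicle calls against 89.7% and 83.8% among all genes, were Kcne3, Kcnip3, Kcnj13, Kcnj3, Kcnk1, Kcnk5, Kcnk6 and Kcnn4; Kcna3 was lower in smoke mice alone by the threshold, with a difference between exposures that was not itself called. Under every alternative that was run, Kcnmb3 and Kcnn2 stayed higher and Kcnip3, Kcnk1, Kcnk5, Kcnk6 and Kcnn4 stayed lower in both exposures. Kcnj3 and Kcne3 also stayed lower in each alternative that tested them, but the filter on dim genes left them out. In bulk sorted cells, a gene carried by a smaller share of the cells and a gene with less RNA in each cell cannot be told apart.

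**Figure D2:**
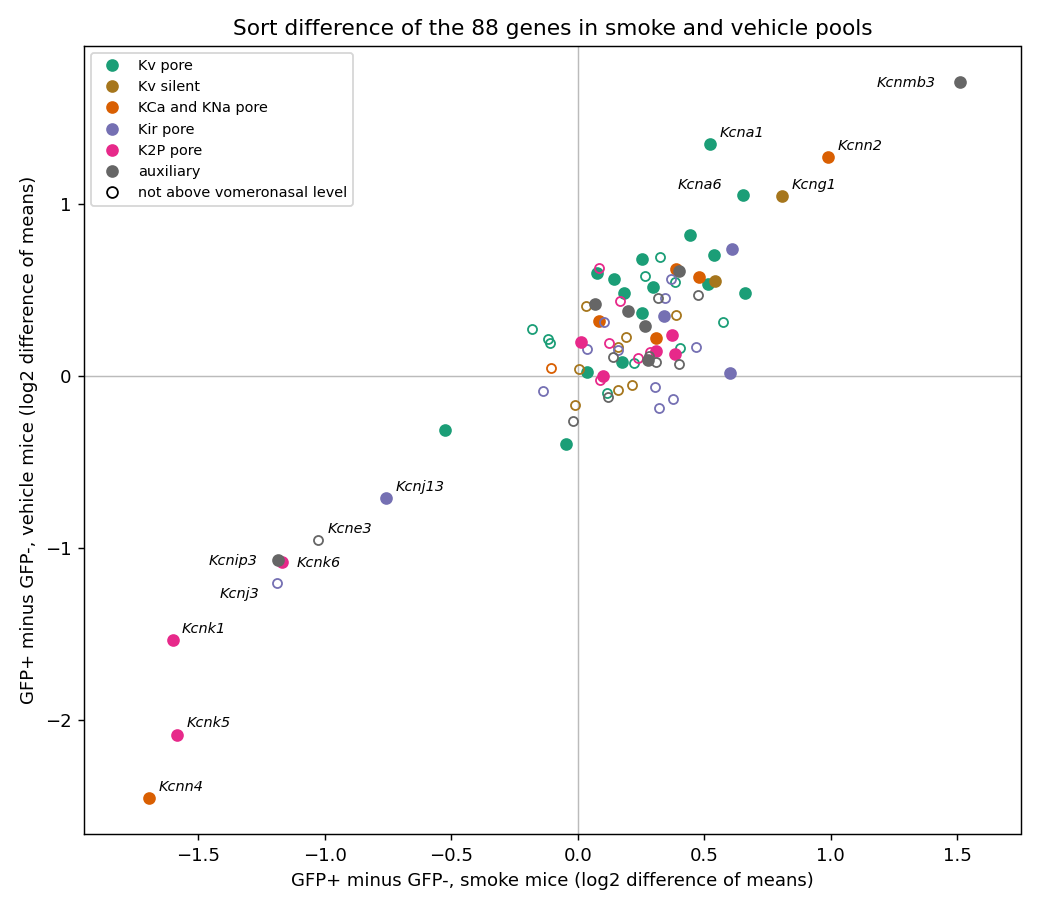
Difference of GFP+ minus GFP- means (log2) of each of the 88 members in smoke mice (horizontal axis) and vehicle mice (vertical axis), coloured by role of the subunit, with open circles for members not above the vomeronasal level in any group. Kcnmb3 lies furthest to the upper right, at 1.51 and 1.71, and Kcnn4, which is below the vomeronasal level in GFP+ cells, to the lower left, at -1.69 and -2.46; the bulk of members lies just above 0 on both axes, a position that moves to just below 0 when vomeronasal medians are made equal.

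The pore subunits of the voltage-gated channels are the largest class. Of 26 measured, 7 were higher and 1 lower in GFP+ cells of smoke mice, and 13 higher and 0 lower in vehicle mice. The higher shares of 26.9% and 50% stand beside 18.3% and 24.2% among all genes. They were 28.6% and 42.9% among the 7 pores classed with the calcium- and sodium-activated channels. No difference between classes was tested. The class had medians of 0.26 and 0.48; the smoke median became -0.03 and the vehicle median 0.18 with equal vomeronasal medians. Kcna6, a Shaker-type channel of neurons, measured 11.83, 11.69, 11.65 and 11.28 in smoke GFP+ against 11.08, 10.94, 10.79 and 11.02 in smoke GFP- cells. In vehicle mice it measured 11.96, 11.77, 11.80 and 11.52 in GFP+ against 10.89, 11.14, 10.64 and 10.16 in GFP- cells. The fractions did not overlap in either exposure, and Kcna6 was higher in GFP+ cells by 0.65 (SE 0.18, adjusted p = 0.00987) in smoke and by 1.05 (SE 0.18, adjusted p = 0.000172) in vehicle mice, 1.57-fold and 2.08-fold. Its smoke call ended without smoke pools 2 and 4.

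Kcna1, which carries low-threshold currents in axons, measured 7.65, 7.57, 7.05 and 7.00 in vehicle GFP+ against 6.30, 6.45, 5.56 and 5.57 in vehicle GFP- cells. In smoke mice it measured 7.07, 7.04, 6.70 and 6.54 in GFP+ against 6.54, 6.37, 6.15 and 6.19 in GFP- cells. The vehicle groups lay far apart and the smoke groups touched at 6.54, where GFP+ replicate 4 and GFP- replicate 1 were equal to 2 decimals. The vehicle difference was 1.35 (SE 0.22, adjusted p = 0.000101); because vehicle GFP- cells were below the vomeronasal level, the fold is given as a bound against that level, at least 2.02-fold higher. The smoke difference of 0.52 (SE 0.22) did not pass (adjusted p = 0.0722). Kcna2, its usual partner in axonal channels, was higher in GFP+ cells of vehicle mice by 0.68 (SE 0.14, adjusted p = 0.000919) and differed by 0.26 (adjusted p = 0.166) in smoke mice. Kcna5 was higher by 0.30 (adjusted p = 0.0476) in smoke and by 0.52 (adjusted p = 0.00136) in vehicle mice, and its smoke call ended when any array but smoke GFP- replicate 1 was left out and with the pool as a fixed replicate block (adjusted p = 0.0728). Kcna3, a channel of lymphocytes and of the olfactory bulb, was lower in smoke mice (difference -0.52, adjusted p = 0.0249). It was at 6.01 ± 0.26 in GFP+ against 6.53 ± 0.37 in GFP- cells (SD, n = 4 each). The GFP- mean was above that group's own vomeronasal level of 6.26. It was below the smoke GFP+ level of 6.57, so no fold is given. The call ended without either smoke array of replicate 3. Kcna4, below the vomeronasal level in all groups, was called higher in smoke mice, a call that ended without any of 4 arrays. Kcna7 and Kcna10 were called in neither exposure.

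The EAG, ERG and ELK subunits (Kcnh), which include the channel of the cardiac and neuronal ERG current, gave 3 positive calls of 8 in smoke and 4 of 8 in vehicle mice. Among all genes 18.3% and 24.2% were called higher. Kcnh3, an ELK channel of the forebrain, measured 11.83, 11.59, 11.89 and 11.59 in smoke GFP+ against 11.38, 11.38, 11.04 and 11.34 in smoke GFP- cells. In vehicle mice it measured 11.95, 11.53, 11.66 and 11.63 in GFP+ against 11.05, 11.11, 10.65 and 10.67 in GFP- cells. All GFP+ values exceeded all GFP- values, by 0.44 (adjusted p = 0.0219) in smoke and 0.82 (adjusted p = 0.000172) in vehicle mice; the smoke call ended without smoke GFP+ replicate 1, smoke GFP+ replicate 3 or smoke GFP- replicate 3. Kcnh2, the ERG1 subunit, was higher by 0.54 (adjusted p = 0.0282) in smoke and 0.71 (adjusted p = 0.00479) in vehicle mice, and Kcnh7, another ERG subunit, by 0.51 (adjusted p = 0.0209) and 0.54 (adjusted p = 0.0136). The Kcnh2 smoke call ended without any of 4 arrays, that of Kcnh7 without any of 3. The Kcnh7 vehicle call ended without vehicle GFP- replicate 4. Kcnh4 was higher in vehicle mice by 0.60 (adjusted p = 0.00603), at 14.77 ± 0.18 in GFP+ against 14.17 ± 0.22 in GFP- cells, and at 14.58 ± 0.17 against 14.51 ± 0.30 in smoke mice. Kcnh8 was above the vomeronasal level in all groups without a call, and Kcnh1, Kcnh5 and Kcnh6 were below it in every group.

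Among the remaining voltage-gated pores, Kcnc4, a fast Shaw-type channel, was higher in GFP+ cells of vehicle mice by 0.48 (SE 0.13, adjusted p = 0.00859), at 15.76 ± 0.11 in GFP+ against 15.27 ± 0.23 in GFP- cells. Kcnq1, which pairs with Kcne subunits in epithelia and heart, was higher in vehicle mice by 0.56 (adjusted p = 0.00769), at 11.67 ± 0.20 against 11.10 ± 0.25, and differed by 0.14 (adjusted p = 0.495) in smoke mice. Kcnb2, a delayed rectifier of the Shab type, was higher in smoke mice by 0.66 (adjusted p = 0.0161), at 7.23 ± 0.39 against 6.57 ± 0.24, a call that ended without smoke GFP+ replicate 1; in vehicle mice it differed by 0.48 (adjusted p = 0.0593). Kcnc2, and Kcnd1 and Kcnd3 of the A-type Shal group, were called higher in vehicle mice but lay below the vomeronasal level in every group, so no fold is given. Leaving out 1 array ended the Kcnd1 call for 5 vehicle arrays, the Kcnd3 call for 4 and the Kcnc2 call for 2. Kcnc1, Kcnd2, Kcnq3 and Kcnq5 were called in neither exposure; Kcnq5, a subunit of the M-current family, differed by 0.04 and 0.02.

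Silent voltage-gated subunits do not form channels alone but change the currents of Shab-type partners. Of 10 measured, 2 were higher and 0 lower in each exposure, and both were the same genes, Kcns3 and Kcng1. The higher share of 20% stands beside 18.3% of all genes in smoke and 24.2% in vehicle mice. Kcns3 measured 13.75, 13.74, 13.81 and 13.82 in smoke GFP+ against 13.42, 13.09, 13.00 and 13.45 in smoke GFP- cells, and 13.84, 13.70, 13.69 and 13.81 in vehicle GFP+ against 13.22, 13.26, 13.15 and 13.18 in vehicle GFP- cells. The fractions stood apart in all pools, with differences of 0.54 (SE 0.11, adjusted p = 0.000957) in smoke and 0.55 (SE 0.11, adjusted p = 0.000672) in vehicle mice, which with equal vomeronasal medians no longer passed. Kcng1 measured 8.01, 8.02, 7.74 and 7.46 in smoke GFP+ against 7.40, 6.76, 7.02 and 6.83 in smoke GFP- cells, and 8.45, 8.66, 7.61 and 7.92 in vehicle GFP+ against 6.90, 7.75, 6.95 and 6.86 in vehicle GFP- cells. GFP- replicate 2 of the vehicle pools lay inside the GFP+ range, but in each of the 8 pools GFP+ was the higher fraction, by 0.81 (adjusted p = 0.0171) in smoke and 1.05 (adjusted p = 0.00258) in vehicle mice on average. The smoke call of Kcng1 ended without smoke GFP- replicate 2 and without smoke pools 2 and 4. The other 8 silent subunits were below the vomeronasal level in every group and were not called.

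The calcium-activated channels of the Kcnn family moved in opposite directions between members. Kcnn2, the small-conductance SK2 channel that follows calcium entry in neurons, measured 13.56, 13.36, 13.45 and 13.35 in smoke GFP+ against 12.72, 12.38, 12.04 and 12.61 in smoke GFP- cells. In vehicle mice it measured 13.28, 13.18, 13.05 and 13.22 in GFP+ against 11.96, 12.10, 12.01 and 11.58 in GFP- cells. Every GFP+ value exceeded every GFP- value of either exposure, and Kcnn2 was higher by 0.99 (SE 0.14, adjusted p = 4.84e-05; 1.99-fold) in smoke and by 1.27 (SE 0.14, adjusted p = 2.46e-06; 2.42-fold) in vehicle mice. Kcnn4, the intermediate-conductance channel known from red cells, lymphocytes and epithelia, ran the other way. It measured 5.81, 5.63, 5.33 and 5.22 in smoke GFP+ against 6.63, 7.79, 7.58 and 6.77 in smoke GFP- cells. In vehicle mice it measured 4.85, 5.21, 4.54 and 5.09 in GFP+ against 7.16, 7.19, 7.26 and 7.89 in GFP- cells. All GFP+ values lay below the vomeronasal level and all GFP- values above it; the difference was -1.69 (SE 0.25, adjusted p = 5.54e-05), at least 1.54-fold lower, in smoke mice and -2.46 (SE 0.25, adjusted p = 6.85e-07), at least 1.88-fold lower, in vehicle mice.

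The 7 pores classed with the calcium- and sodium-activated channels include the pH-sensitive Kcnu1. Of these 7, 2 were higher and 1 lower in smoke mice, and 3 higher and 1 lower in vehicle mice. The smoke shares were 28.6% and 14.3%, beside 18.3% and 14.4% of all genes. The vehicle shares were 42.9% and 14.3%, beside 24.2% and 15.4%. Kcnn1, the SK1 channel, was higher by 0.48 (adjusted p = 0.0227) in smoke and 0.58 (adjusted p = 0.0063) in vehicle mice, and its smoke call ended without any of 4 arrays. Kcnn3, the SK3 channel, was higher in vehicle mice (adjusted p = 0.0365), at least 1.23-fold because vehicle GFP- cells were below the vomeronasal level, a call that ended without any of 6 vehicle arrays, and differed by 0.39 (adjusted p = 0.195) in smoke mice. The sodium-activated Kcnt1 and Kcnt2 and the pH-sensitive sperm channel Kcnu1 were not called in either; Kcnu1 averaged 9.07 ± 0.27 in smoke GFP+ against 8.76 ± 0.14 in smoke GFP- cells and 9.04 ± 0.24 in vehicle GFP+ against 8.82 ± 0.09 in vehicle GFP- cells.

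Most inward rectifiers were dim, and 11 of the 15 measured were below the vomeronasal level in every group. In smoke mice 3 were higher and 2 lower (20% and 13.3%, beside 18.3% and 14.4% of all genes). In vehicle mice 2 were higher and 2 lower (13.3% each, beside 24.2% and 15.4% of all genes). Kcnj2, a strong rectifier of excitable cells, was higher in GFP+ cells by 0.61 (SE 0.18, adjusted p = 0.0156) in smoke and 0.74 (SE 0.18, adjusted p = 0.0035) in vehicle mice, at 11.47 ± 0.11 in GFP+ against 10.86 ± 0.40 in GFP- and at 11.64 ± 0.15 against 10.90 ± 0.29; the smoke call ended without smoke GFP- replicate 3. Kcnj5, a subunit of the G-protein-gated rectifiers, was higher in smoke mice by 0.60 (adjusted p = 0.00507), at 7.73, 7.81, 7.54 and 7.70 in GFP+ against 7.08, 7.52, 6.69 and 7.07 in GFP- cells, while the vehicle difference was 0.02 (adjusted p = 0.922). The exposure difference of this sort effect is given with the interaction below. Kcnj13, an epithelial rectifier, was lower, with differences of -0.76 (adjusted p = 0.0304) in smoke and -0.71 (adjusted p = 0.0346) in vehicle mice. It measured 6.86, 6.65, 6.86 and 7.81 in smoke GFP+ against 7.76, 7.73, 7.24 and 8.48 in smoke GFP- cells, and 7.37, 7.16, 7.31 and 7.30 in vehicle GFP+ against 8.37, 7.67, 7.86 and 8.08 in vehicle GFP- cells, so the smoke groups overlapped through GFP+ replicate 4 and the vehicle groups did not. Leaving out 1 array ended the Kcnj13 call for 5 of the 8 smoke arrays and 6 of the 8 vehicle arrays. Kcnj3, another G-protein-gated subunit, passed the test with differences of -1.19 and -1.21 (adjusted p = 0.000216 and 0.000158), but was below the vomeronasal level in all 4 groups, so it is given no fold. Kcnj8 in smoke mice and Kcnj6 in vehicle mice were called higher from below that level too. Leaving out 1 array ended the Kcnj8 call for 3 smoke arrays and the Kcnj6 call for 6 vehicle arrays. Kcnj14 was above the level in all groups and not called (0.34 and 0.35), and the other 8 inward rectifiers, Kcnj1, Kcnj4, Kcnj9, Kcnj10, Kcnj11, Kcnj12, Kcnj15 and Kcnj16, were dim and not called.

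The two-pore-domain leak channels include 3 members that were lower in GFP+ cells in both exposures. Of 14 measured, 2 were higher and 3 lower in smoke mice, and 1 higher and 3 lower in vehicle mice. The smoke shares were 14.3% and 21.4%, beside 18.3% and 14.4% of all genes. The vehicle shares were 7.14% and 21.4%, beside 24.2% and 15.4%. Kcnk1, a weak inward rectifying leak channel of epithelia and brain, measured 7.86, 7.95, 7.48 and 8.27 in smoke GFP+ against 9.15, 9.17, 9.87 and 9.77 in smoke GFP- cells, and 7.08, 7.75, 7.82 and 8.43 in vehicle GFP+ against 9.40, 9.23, 9.20 and 9.37 in vehicle GFP- cells. No GFP+ value reached a GFP- value, and all 16 arrays were above the vomeronasal level. The difference was -1.60 (SE 0.24, adjusted p = 6.91e-05), 3.03-fold lower, in smoke mice and -1.53 (SE 0.24, adjusted p = 9.19e-05), 2.89-fold lower, in vehicle mice.

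Kcnk5, an alkaline-activated channel of epithelia, measured 5.46, 5.34, 5.02 and 5.19 in smoke GFP+ against 6.40, 7.03, 7.18 and 6.73 in smoke GFP- cells. In vehicle mice it measured 4.90, 4.30, 5.08 and 5.11 in GFP+ against 7.05, 6.71, 6.82 and 7.15 in GFP- cells. The GFP+ values lay below the vomeronasal level, and the difference was -1.58 (SE 0.19, adjusted p = 6.39e-06), at least 1.20-fold lower, in smoke mice and -2.08 (SE 0.19, adjusted p = 2.18e-07), at least 1.38-fold lower, in vehicle mice. Kcnk6, a relative of Kcnk1 known from macrophages and vascular cells, showed the same arrangement, with 5.67, 5.92, 5.78 and 5.58 in smoke GFP+ against 6.51, 7.03, 7.25 and 6.84 in smoke GFP- cells and 6.14, 5.88, 5.71 and 5.57 in vehicle GFP+ against 6.68, 6.80, 7.27 and 6.87 in vehicle GFP- cells. Its difference was -1.17 (SE 0.17, adjusted p = 4.41e-05), at least 1.26-fold lower, in smoke mice and -1.08 (SE 0.17, adjusted p = 8.75e-05), at least 1.36-fold lower, in vehicle mice. Kcnk10, an arachidonate- and stretch-sensitive channel, was at 14.64 ± 0.04 in smoke GFP+ against 14.63 ± 0.15 in smoke GFP- cells and at 14.72 ± 0.05 in vehicle GFP+ against 14.52 ± 0.16 in vehicle GFP- cells, and was not called (0.01 and 0.20). Kcnk7, whose protein has not been shown to conduct, and the mechanosensitive Kcnk4 were higher in smoke mice by 0.37 (adjusted p = 0.0239) and 0.31 (adjusted p = 0.0499); the Kcnk4 call ended in 7 of the 8 single-array omissions and with the pool as a fixed replicate block (adjusted p = 0.0728), that of Kcnk7 in 2. Kcnk18, a channel of sensory ganglia, was called higher in vehicle mice from below the vomeronasal level. Kcnk2, Kcnk3, Kcnk9, Kcnk12, Kcnk13, Kcnk15 and Kcnk16 were not called in either exposure.

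**Figure D3:**
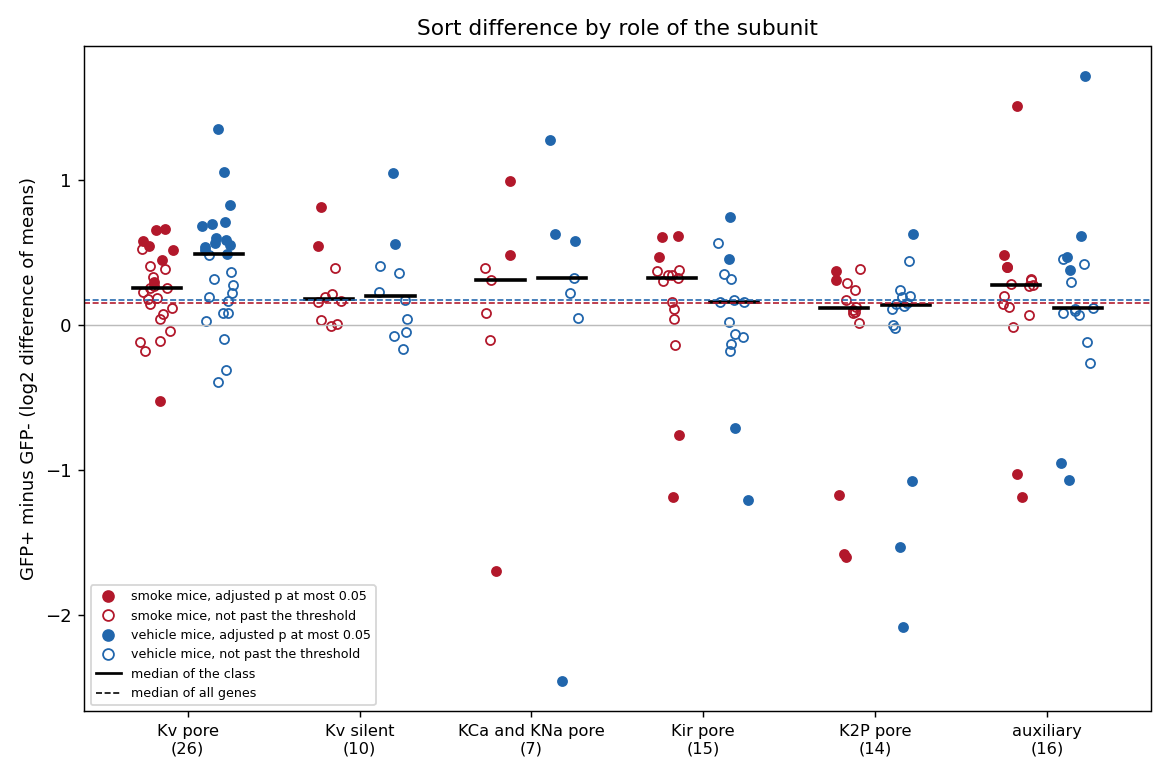
Difference of GFP+ minus GFP- means (log2, vertical axis) of every member by role of the subunit, with the number of members under each class, smoke mice at the left and vehicle mice at the right of each pair. Filled circles had an adjusted p of at most 0.05, black lines are class medians and dashed lines the medians of all genes (0.15 in smoke and 0.17 in vehicle mice). The lowest points are Kcnn4 among calcium-activated pores and Kcnk5 and Kcnk1 among K2P pores, of which Kcnn4 and Kcnk5 are below the vomeronasal level in GFP+ cells and so have no exact order; with equal vomeronasal medians the class medians lie between -0.18 and 0.03 in smoke and between -0.19 and 0.18 in vehicle mice.

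Auxiliary subunits held both the largest positive difference and negative ones called in both exposures. Of 16 measured, 4 were higher and 2 lower in each exposure (25% and 12.5%). Among all genes 18.3% were higher and 14.4% lower in smoke mice, and 24.2% and 15.4% in vehicle mice. Kcnmb3, a beta subunit of the large-conductance calcium-activated channel, measured 14.18, 14.24, 14.35 and 13.84 in smoke GFP+ against 12.93, 12.50, 12.83 and 12.31 in smoke GFP- cells. In vehicle mice it measured 14.13, 14.55, 14.16 and 13.88 in GFP+ against 12.37, 13.21, 12.13 and 12.16 in GFP- cells. GFP+ was the higher fraction in all 8 pools, by 1.25 to 1.73 in smoke and 1.34 to 2.03 in vehicle pools. The fitted differences were 1.51 (SE 0.22, adjusted p = 4.77e-05; 2.85-fold) and 1.71 (SE 0.22, adjusted p = 1.01e-05; 3.28-fold). Its pore partner, Kcnma1, was not analysed here. Of the other beta subunits of that channel, Kcnmb2, which inactivates it, was higher in vehicle mice by 0.38 (adjusted p = 0.0043) and differed by 0.20 (adjusted p = 0.117) in smoke mice; Kcnmb1 and Kcnmb4 were not called.

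Kcnip3, a calcium-binding partner of A-type channels also known as a transcriptional repressor, measured 7.15, 6.46, 6.37 and 6.39 in smoke GFP+ against 7.37, 7.45, 8.32 and 7.98 in smoke GFP- cells, and 6.38, 6.87, 6.40 and 6.80 in vehicle GFP+ against 7.50, 7.65, 7.91 and 7.67 in vehicle GFP- cells. GFP+ was the lower fraction in all 8 pools, least in smoke pool 1 (-0.22), where the GFP+ value was the highest of its group. The fitted difference was -1.19 (SE 0.22, adjusted p = 0.000436), 2.28-fold lower, in smoke mice and -1.07 (SE 0.22, adjusted p = 0.000902), 2.10-fold lower, in vehicle mice. The GFP+ means lay close to the vomeronasal level, at 6.59 against 6.57 in smoke and 6.61 against 6.46 in vehicle mice. In smoke GFP+ cells only replicate 1 stood above that level. Both folds therefore rest on values near the floor and their size is uncertain. Kcnip4, of the same family, was at 13.88 ± 0.21 in smoke GFP+ against 13.81 ± 0.25 in smoke GFP- cells and at 13.95 ± 0.21 in vehicle GFP+ against 13.53 ± 0.30 in vehicle GFP- cells, and was not called. Kcnab2, a cytoplasmic beta subunit of Shaker-type channels, was higher by 0.40 (adjusted p = 0.0133) in smoke and 0.61 (adjusted p = 0.000452) in vehicle mice, at 15.89 ± 0.11 in smoke GFP+ against 15.49 ± 0.20 in smoke GFP- and at 15.87 ± 0.10 in vehicle GFP+ against 15.26 ± 0.13 in vehicle GFP- cells; its smoke call ended without smoke GFP- replicate 3. Kcnab3 was called higher in both exposures from below the vomeronasal level, as was Kcne2 in smoke mice. The Kcnab3 calls ended without smoke GFP- replicate 3 and without vehicle GFP- replicate 4, and the Kcne2 call without any of 3 arrays. Kcne3, a partner of Kcnq1 in epithelia, passed the test with differences of -1.03 and -0.95 (adjusted p = 0.00529 and 0.00684) but was below that level in all groups and is given no fold. Kcnab1, Kcne1, Kcne1l, Kcne4, Kcnip1 and Kcnip2 were dim and not called.

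GFP+ and GFP- cells also differed in several lists of markers of other cells, but not in all. Among all genes 14.4% were called lower in smoke and 15.4% in vehicle mice. Over lists named from textbook knowledge with earlier results of these arrays known, the 14 immune genes averaged 7.22 to 7.77 in GFP+ against 11.44 to 12.71 in GFP- arrays, and 12 of the 14 in smoke and 14 of the 14 in vehicle mice were lower. The 13 genes of microvillar cells and ionocytes averaged 6.66 to 7.04 in GFP+ against 9.24 to 9.59 in GFP- arrays, with 11 of the 13 lower in each exposure. Genes of immature neurons averaged 10.42 to 10.71 in GFP+ against 12.37 to 12.70 in GFP- arrays, and genes of globose basal cells 6.10 to 6.41 against 8.15 to 9.43. Of the 11 immature neuron genes 6 were lower in each exposure, and 1 was higher in vehicle mice. Of the 7 globose basal genes 6 were lower in each. Of the red cell list only Alas2, an enzyme of haem synthesis, was analysed here, at 7.88 to 8.73 in GFP+ against 10.07 to 12.41 in GFP- arrays, and it was lower in both exposures (differences -2.80 and -3.27). Some lists moved little. Their median differences in smoke and vehicle mice were 0.09 and -0.08 for horizontal basal genes and 0.21 and 0.13 for ensheathing genes. Gland and respiratory genes had 0.12 and -0.09. Endothelial and stromal genes had -0.06 and -0.13, with 3 and 4 of the 12 lower. Mature neuron genes averaged 15.94 to 16.03 in GFP+ against 15.52 to 15.78 in GFP- arrays, and 6 of the 15 were higher in smoke and 9 in vehicle mice. Among all genes 18.3% and 24.2% were called higher. The median differences of this list, 0.24 and 0.34, stand beside the vomeronasal receptors' 0.23 and 0.26. The list's median was close to the receptors' in smoke mice and above it in vehicle mice. The list averages near 16, far above the level of the receptors, where a shift may be recorded differently. Whether the list's shift goes beyond that of the floor was not tested. Sustentacular genes averaged 10.68 to 11.56 in GFP+ against 11.12 to 11.74 in GFP- arrays of smoke mice. In vehicle mice they averaged 10.49 to 10.87 in GFP+ against 11.25 to 11.56 in GFP- arrays. Of these 12 genes 4 were lower in smoke and 9 in vehicle mice, with median differences of -0.45 and -0.84. The 2 highest GFP+ arrays for this list were smoke replicates 2 and 4. Without smoke pools 2 and 4 the count of members higher in GFP+ cells of smoke mice was 10 in place of 20. The share of all genes called higher fell from 18.3% to 7.74%, and the members' median difference was 0.24 in place of 0.23. Whether sustentacular cells play a part in that count was not tested. The part that these cell mixtures play in the differences of Kcnn4, Kcnk1, Kcnk5, Kcnk6 and Kcnip3 was not tested.

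The other question of the design was whether smoke changed channel levels within a fraction. No member was called for smoke against vehicle in GFP+ cells or in GFP- cells, where 0.108% and 0.128% of all genes were called (limma, adjusted p at most 0.05). At an unadjusted p of at most 0.05, 5 members passed in GFP+ and 7 in GFP- cells (5.68% and 7.95%), beside 936 and 1115 of all genes (4.8% and 5.72%). The differences of the 88 members ran from -0.48 to 0.58 in GFP+ cells and from -0.38 to 0.55 in GFP- cells, with medians of 0.03 and 0.06, and all genes had medians of -0.0044 and 0.0105.

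In GFP+ cells the members with the smallest p were Kcnj11, Kcna3, Kcnn4 and Kcna1. Kcnj11, a subunit of the ATP-sensitive channel, measured 4.63, 4.41, 4.34 and 4.64 in smoke against 4.16, 4.06, 3.69 and 4.17 in vehicle GFP+ cells, a difference of 0.48 (SE 0.18, adjusted p = 0.946) below the vomeronasal level. Kcna3 measured 6.01, 6.32, 5.69 and 6.02 in smoke against 6.35, 6.33, 6.49 and 6.44 in vehicle GFP+ cells, a difference of -0.39 (SE 0.17, adjusted p = 0.999), with both means below the vomeronasal level. These groups do not overlap, but neither difference passed. For Kcnn4 the difference was 0.58 (SE 0.25, adjusted p = 0.999), with all arrays of both groups below the vomeronasal level, and for Kcna1 it was -0.48 (SE 0.22, adjusted p = 0.999), at 6.84 ± 0.26 in smoke against 7.32 ± 0.34 in vehicle GFP+ cells with overlapping ranges.

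In GFP- cells the smallest p belonged to Kcnn2, Kcnh3, Kcnj5 and Kcnn3. Kcnn2 measured 12.72, 12.38, 12.04 and 12.61 in smoke against 11.96, 12.10, 12.01 and 11.58 in vehicle GFP- cells, a difference of 0.53 (SE 0.14, adjusted p = 0.409). The ranges overlapped only through smoke replicate 3, and adjusted p lay between 0.09 and 0.913 over 16 alternatives. Kcnh3 differed by 0.41 (SE 0.14, adjusted p = 0.665), at 11.28 ± 0.16 in smoke against 10.87 ± 0.25 in vehicle GFP- cells. Kcnj5 differed by -0.38 (SE 0.15, adjusted p = 0.778), at 7.09 ± 0.34 against 7.48 ± 0.07. Kcnn3 differed by 0.55 (SE 0.23, adjusted p = 0.821), at 6.52 ± 0.36 against 5.96 ± 0.41, the vehicle mean being below the vomeronasal level. None of these passed in any alternative that was run.

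**Figure D4:**
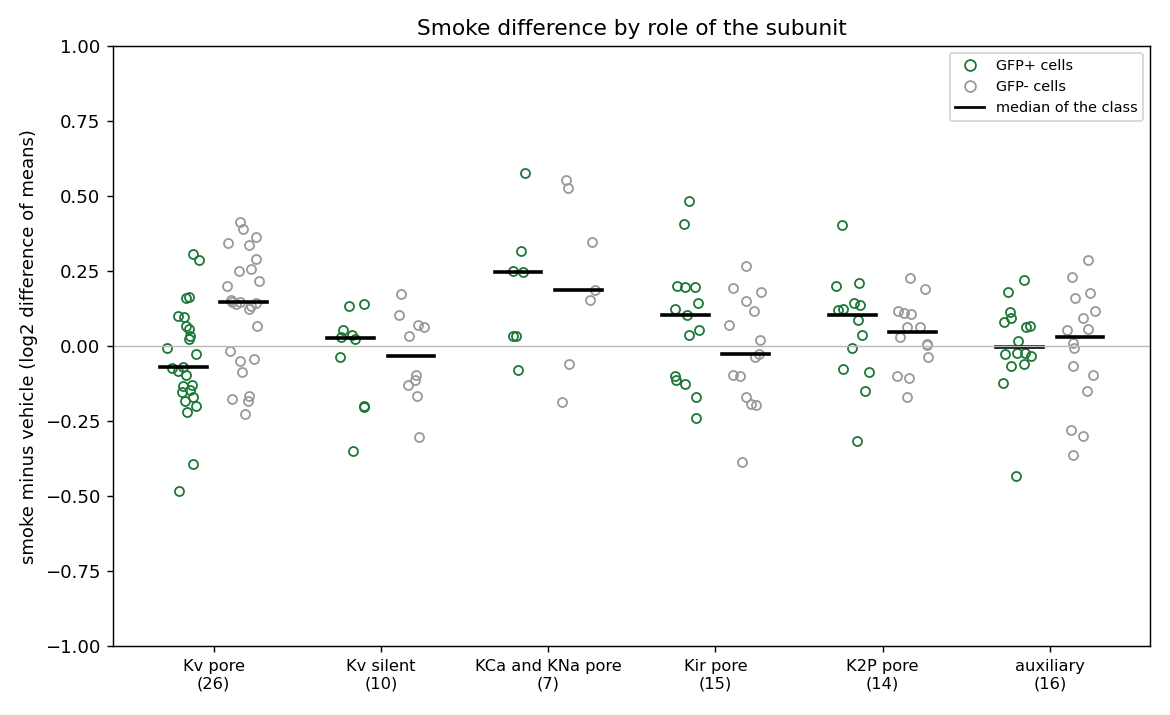
Difference of smoke minus vehicle means (log2, vertical axis) of every member by role of the subunit, in GFP+ cells at the left and GFP- cells at the right of each pair, with class medians as black lines. All values lie between -0.48 and 0.58, and none had an adjusted p of at most 0.05.

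Whether smoke moved a gene differently in the 2 fractions was tested as an interaction, the smoke difference in GFP+ cells minus that in GFP- cells. No member was called, where 0.174% of all genes were, and 6 members (6.82%) had an unadjusted p of at most 0.05, near the 5.71% of all genes. The largest in size was that of Kcna1, whose smoke difference was -0.48 in GFP+ and 0.34 in GFP- cells, an interaction of -0.82 (SE 0.30, adjusted p = 0.825). Kcnj5 had an interaction of 0.58 (SE 0.21, adjusted p = 0.817), so its sort difference of 0.60 in smoke and 0.02 in vehicle mice is not shown to differ. Kcnk18 (-0.54, adjusted p = 0.825) and Kcnh4 (-0.52, adjusted p = 0.843) did not pass either.

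Other genes that handle potassium or set membrane potential were read from a list of 29 measured genes, chosen by role with earlier results known. In GFP+ against GFP- cells 7 were higher and 1 lower in smoke mice, and 9 higher and 1 lower in vehicle mice, where 18.3% and 14.4% of all genes were called higher and lower in smoke mice and 24.2% and 15.4% in vehicle mice. The list's medians were 0.21 and 0.27 beside 0.15 and 0.17 for all genes, and 0.23 and 0.26 for the vomeronasal receptors. The lower gene was Atp1b3, a sodium pump beta subunit, with differences of -1.02 (adjusted p = 1.3e-05) in smoke and -1.21 (adjusted p = 1.47e-06) in vehicle mice. Among the higher genes were Slc24a2, a potassium-dependent sodium/calcium exchanger (1.01 and 0.82), Slc24a4, its relative that clears calcium from olfactory neurons in mouse (0.59 and 0.74, also among the mature neuron markers), Kcnrg, a regulator of voltage-gated channels (0.86 and 0.90), and Hcn2, a hyperpolarisation-activated cation channel (0.51 and 0.81). Amigo1, an auxiliary protein of Shab-type channels, was higher in vehicle mice by 0.67 (adjusted p = 0.000649) and differed by 0.25 (adjusted p = 0.151) in smoke mice. No gene of this list was called for smoke in either fraction.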

How the data were processed

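Values were used as the authors deposited them, on a log2 scale inferred from their range (2.29 to 18.6). Per the submitters' processing notes they came from Affymetrix Expression Console; no source read here gives its version, algorithm or normalization. Biotinylated cRNA was made from 50 to 100 ng of total RNA, per the labels. Of 28846 probe sets 19572 carried 1 gene symbol, and the probe set with the highest mean represented each of 19505 genes.

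Linear models (limma 3.58.1 in R 4.3.3; lmFit, eBayes) had 4 group means over 16 arrays and no block; p-values were two-sided and Benjamini-Hochberg adjusted over all genes, with a threshold of 0.05. The code was tested on simulated data. Only 4 arrays a group limit the precision, and scan batches were not identified. The fractions of a pool come from the same mice, so pool numbers pair them; residuals of the pairs correlated with r of 0.0453 to 0.22. Smoke and vehicle samples share only a number.

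A gene was below the vomeronasal level where its group mean did not exceed that group's mean 95th percentile of vomeronasal receptors. Where 1 group lay there, values under the level were raised to it and the fold is a bound. Members, lists, level and alternatives were chosen with earlier results of these data known. Genes named were the 12 largest called, non-overlapping sort differences in each direction, the 4 smallest p of each smoke comparison and interaction, the member of each subfamily with the highest mean, and up to 4 other potassium genes in each direction; the rest were named after their values were seen, to account for every member. Alternatives were quantile normalization, a filter on dim genes, fits on the compared groups, a mean-dependent prior, pool blocks and each array left out, and, chosen after the data were seen, omission of smoke pools 2 and 4 and equal vomeronasal medians.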

Additional observations from a re-analysis of the deposited data

Results flagged for a closer look

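In each group of 4 arrays, a value was picked out when its gap to the nearest other array exceeded the 95% limit of Dixon's test. Over 42 named genes and 4 groups this was checked 168 times, of which chance alone picks about 8.4, and it picked 8. In GFP+ cells these were Kcnip3 in smoke replicate 1 (7.15, the others 6.37 to 6.46), Kcnt1 in smoke replicate 4 (6.14, the others 6.51 to 6.57) and Kcnt1 in vehicle replicate 2 (6.58, the others 6.49 to 6.50). In GFP- cells they were Kcnh3 in smoke replicate 3 (11.04, the others 11.34 to 11.38), Kcnj3 in smoke replicate 4 (6.35, the others 5.69 to 5.79), Kcng1 in vehicle replicate 2 (7.75, the others 6.86 to 6.95), Kcnh2 in vehicle replicate 4 (9.79, the others 10.09 to 10.12) and Kcnn4 in vehicle replicate 4 (7.89, the others 7.16 to 7.26). The 8 are spread over 7 genes and 7 arrays, and their number is near the chance count. Many of the 42 genes were named for non-overlapping groups or small p, which depend on the spread within groups. The chance count holds for groups not chosen in that way, so no conclusion is drawn from the match.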

How the results depend on the processing

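No called difference of a named gene changed sign in any alternative run, but with equal vomeronasal medians the members' medians turned negative and lower calls outnumbered higher ones. The count of members higher in GFP+ cells of smoke mice, 20, ran from 9 to 20 with 1 array left out. It became 13 with only the groups compared, 10 without smoke pools 2 and 4 and 2 with equal vomeronasal medians. The share of all genes called higher, 18.3%, became 13.5%, 7.74% and 3.94% in the same order. The vehicle counts of 25 higher and 8 lower became 7 and 13 with equal vomeronasal medians, and with 1 array left out ran from 19 to 28 and from 7 to 9; the 9 lower in smoke mice ran from 7 to 9. By construction the vomeronasal scaling lowers every GFP+ value relative to GFP-; the causes of the other shifts were not tested. With the pool as a fixed replicate block 21 were higher and 9 lower in smoke mice and 29 higher and 8 lower in vehicle mice, and as a random block 22, 9, 30 and 8; among the named genes the fixed block ended only the smoke calls of Kcna5 and Kcnk4. The replicate number as a block left 0 calls for smoke in both fractions, and these counts and the interaction stayed at 0 in all alternatives run. Of the calls, 5 of the 20 smoke and 18 of the 25 vehicle calls higher in GFP+, and 7 of the 9 and 7 of the 8 lower, kept their call with any 1 array left out. Signal over background limits the 45 members at or below the vomeronasal level in every group.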
